A study of Homo sapiens with 6 samples.

Results

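A group of 9 S100 genes on the long arm of human chromosome 1 (band 1q21) was followed across 2 breast cancer cell lines. They are S100A2, S100A3, S100A4, S100A6, S100A10, S100A11, S100A13, S100A14 and S100A16. Their rows were picked by gene symbol out of the 61541 genes of the deposited count table. The genes were chosen with the difference between the lines already known, so their own differences are given as a description, without a p-value. Of the 9, 6 passed the filter on low counts that left 14176 genes for testing, and the other 3 (S100A3, S100A11 and S100A14) are accounted for one by one.

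The lymph node line is MDA-MB-231-D3H2LN, abbreviated MDA231-LN, a commercial subline that is known to carry luciferase and to derive from a tumour that had spread to a lymph node in a mouse. Its parent is MDA-MB-231, a triple-negative, mesenchymal-like breast cancer line. Both were grown in high-glucose DMEM with 10% serum, and total RNA of 3 libraries per line was sequenced as read pairs. Each line stands for 1 source of cells, so the passage through a lymph node cannot be told apart from any other difference between these lines. Whether replicate libraries were separate cultures is not stated in the labels, and every p-value here measures only the spread between these libraries. The study's title concerns tumour cell Jagged-1 in lymph node metastasis, and the comparison asks which genes differ between the lymph node line and its parent.

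S100 proteins are small calcium sensors. Each subunit carries a pair of EF-hands, loops that hold calcium ions, and most members work as dimers that expose a binding surface for a target protein once calcium is bound. Targets inside the cell include annexins and myosin, and some members are also released and act on cell surface receptors such as AGER (RAGE). Their genes lie close together in 1q21 within the epidermal differentiation complex, and several of them are widely studied in breast cancer spread.

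Counted read pairs came to 17661542 to 18882719 in the MDA231-LN libraries and 16461578 to 19171017 in the parental libraries. Levels are given in CPM, counts relative to the TMM-scaled library size. The limit that a count of 0 allows, 3 counts summed over replicates, equals 0.0526 CPM in MDA231-LN and 0.059 CPM in parental cells. Summed levels of the 6 markers taken for MDA-MB-231 cells (VIM, CD44, KRT18, KRT8, EGFR and AXL) ran 5488 to 5737 CPM in MDA231-LN and 4073 to 4218 CPM in parental libraries. The sum mixes directions. VIM, CD44 and AXL were higher in MDA231-LN. EGFR (means of 328 CPM in MDA231-LN and 632 CPM in parental cells) and KRT18 (363 and 455 CPM) were lower, and KRT8 overlapped. Of the exonic bases of VIM, 41.8% lie inside another gene. The 5 genes that should be low or absent (ESR1, PGR, ERBB2, CDH1 and EPCAM) summed to at most 111 CPM in MDA231-LN and 108 CPM in parental libraries, most of it ERBB2 and EPCAM, with PGR and CDH1 near 0. Markers of other cells were low. The 4 leukocyte genes summed to 0.977 to 2.31 CPM in MDA231-LN and 1.16 to 2.66 CPM in parental libraries, with CD3E at 0. The 3 endothelial genes, nearly all PECAM1, summed to 8.76 to 8.94 CPM in MDA231-LN and 7.73 to 11.7 CPM in parental libraries. The 4 fibroblast genes, mostly COL1A1, summed to 14.9 to 19.5 CPM in MDA231-LN and 9.19 to 14.6 CPM in parental libraries. The 4 keratinocyte genes summed to at most 0.222 CPM in MDA231-LN and 0.0609 CPM in parental libraries. Among them IVL, whose exons lie wholly inside another gene, was not measured. In bulk RNA, fewer cells that express a gene and less of its RNA per cell cannot be told apart.

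All 9 genes lie on the minus strand of chromosome 1 (GRCh38) and form 2 runs. The first run holds S100A10 and S100A11. The second run holds S100A6, S100A4, S100A3, S100A2, S100A16, S100A14 and S100A13 in that order along the chromosome, as the map of gene bodies shows. The counts cover whole gene bodies, introns included, without regard to strand, and leave out read pairs that touch more than 1 gene. A gene buried in another gene can therefore be listed with few counts whatever its level.

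**Figure D1:**
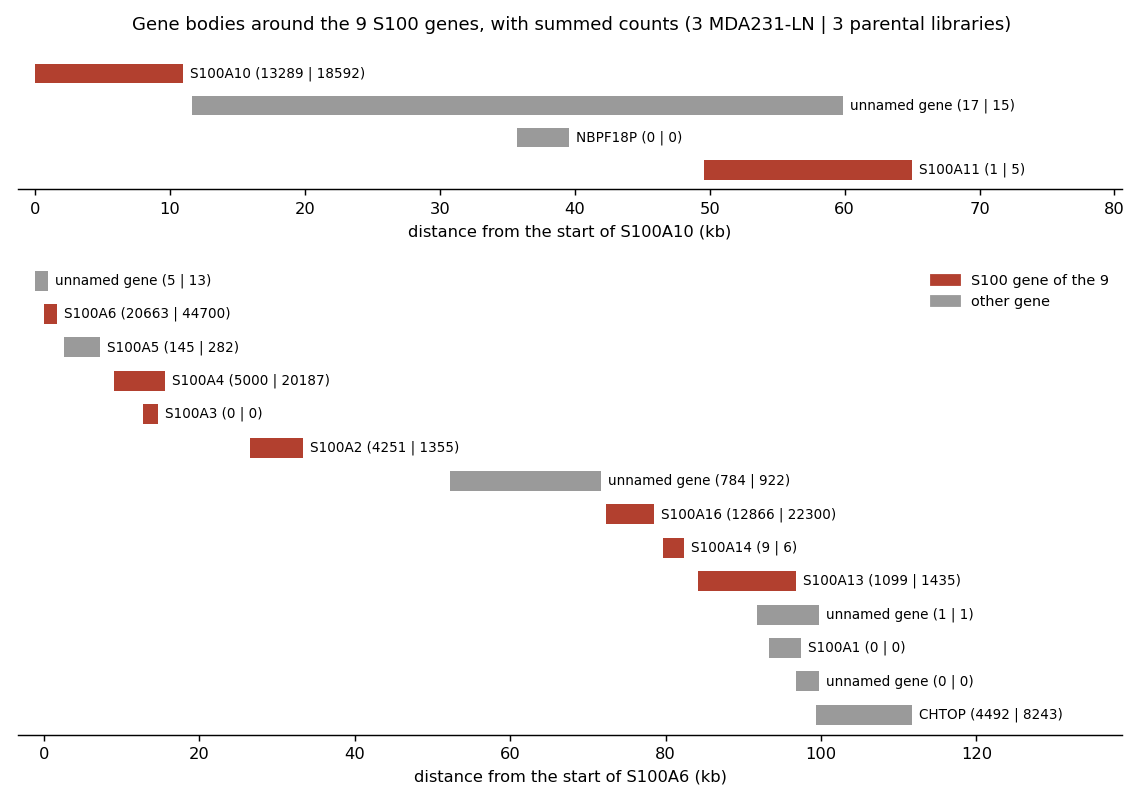
Gene bodies around the 9 S100 genes, each bar spanning a gene along the distance in kb from the start of S100A10 (upper panel) or S100A6 (lower panel), with its summed counts over the 3 MDA231-LN and then the 3 parental libraries in brackets. S100A3 lies wholly inside S100A4 and has 0 counts in each line, and S100A11 overlaps a longer unnamed gene and has 1 count in MDA231-LN and 5 in parental libraries.

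Of the 6 S100 genes that passed the filter on low counts, 5 were lower in MDA231-LN and 1, S100A2, was higher. S100A4 stood lowest against parental cells, at 4.56-fold lower, followed by S100A6 (2.46-fold), S100A16 (1.95-fold), S100A10 (1.58-fold) and S100A13 (1.47-fold). S100A2 was 2.76-fold higher. For each of the 6 genes the 3 MDA231-LN values did not overlap the 3 parental values. Such separation was common in these lines: 66.6% of the 14176 tested genes showed no overlap (33.8% higher and 32.8% lower in MDA231-LN). All 6 were likewise past the call threshold of 0.05 on the adjusted p (edgeR quasi-likelihood test, Benjamini-Hochberg), as were 62.8% of all tested genes, 31.6% being higher and 31.2% lower in MDA231-LN. Because the genes were chosen on this contrast, nothing is read from their count. Each SE of a log2 fold change below was derived from the edgeR test, as the change's size over the square root of the F value. That test shares spread across genes, so such an SE can be smaller than the spread of a gene's own libraries implies.

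**Figure D2:**
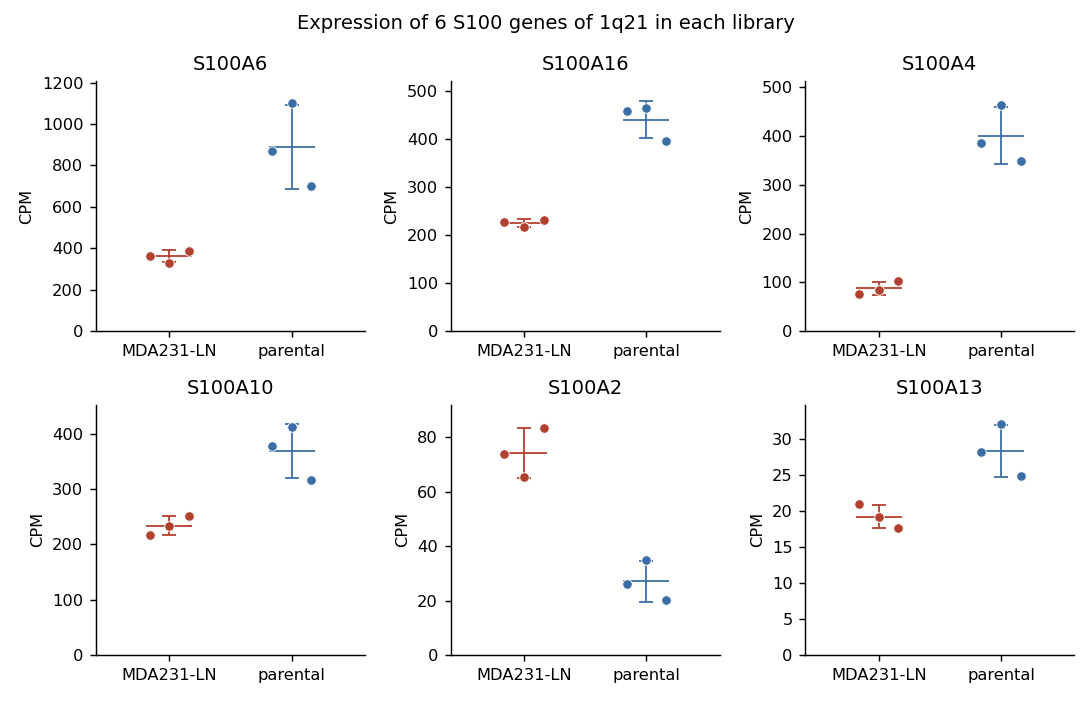
Level of each of 6 S100 genes in CPM, with 1 point per library, a line at the mean and bars of 1 SD, for MDA231-LN (red, n = 3) and parental cells (blue, n = 3). S100A2 alone is higher in MDA231-LN, and in no panel do the points of both lines overlap.

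S100A4, also called metastasin, is known for binding non-muscle myosin IIA and for promoting cell motility and metastasis in mouse tumour models. The gene spans chr1:153543613-153550136, and 29.6% of that span is shared with S100A3, where no read pair was counted for either. S100A4 had 75.8, 84.5 and 103 CPM in the MDA231-LN libraries, against 386, 464 and 349 CPM in the parental libraries. Even the highest MDA231-LN value was far below the lowest parental value. Means were 87.6 ± 13.7 CPM in MDA231-LN and 399.9 ± 58.4 CPM in parental cells (SD, n = 3 each), a log2 fold change of -2.19 ± 0.09 (SE). The line that came out of a lymph node thus held less RNA of this metastasis-associated gene than its parent.

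S100A6, or calcyclin, binds CACYBP, annexins and other targets and is raised in proliferating cells and in many carcinomas. It spans chr1:153534599-153536244. S100A6 had 365, 331 and 389 CPM in the MDA231-LN libraries, against 868, 1101 and 700.4 CPM in the parental libraries. The parental libraries were higher throughout and also further apart. Means were 362 ± 28.9 CPM in MDA231-LN and 890 ± 201 CPM in parental cells (SD, n = 3 each), a log2 fold change of -1.30 ± 0.09 (SE). Of its exonic bases, 27.7% lie inside an antisense gene, where read pairs were not counted for either gene.

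S100A2 is a mainly nuclear member that is made by normal mammary epithelial cells and is often reduced in breast carcinoma. It spans chr1:153561108-153567890, between S100A4 and S100A16. S100A2 had 74.1, 65.3 and 83.6 CPM in the MDA231-LN libraries, against 26.0, 34.9 and 20.2 CPM in the parental libraries. Every MDA231-LN library was well above every parental one. Means were 74.3 ± 9.16 CPM in MDA231-LN and 27.0 ± 7.43 CPM in parental cells (SD, n = 3 each), a log2 fold change of 1.47 ± 0.12 (SE). These figures rest on 4251 counts in MDA231-LN and 1355 in parental libraries, and no other annotated gene overlaps S100A2.

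S100A4 and S100A2, neighbours that differed in opposite directions, were also compared in counts within a library, which needs no scaling between libraries. For each 100 counts of S100A4 there were 97.8, 77.2 and 81.5 counts of S100A2 in the MDA231-LN libraries, against 6.74, 7.53 and 5.77 in the parental libraries. Both genes thus had similar counts in MDA231-LN, whereas S100A4 far outnumbered S100A2 in parental cells. S100A4 per 100 counts of S100A6 was 20.7, 25.5 and 26.4 in MDA231-LN and 44.5, 42.1 and 49.9 in parental libraries. S100A2 per 100 counts of S100A6 averaged 20.5 ± 0.923 in MDA231-LN and 3.02 ± 0.147 in parental cells (SD, n = 3 each). This last ratio was steadier between replicates than the level of either gene.

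The sequences before the annotated starts of these genes, and of S100A16 as a neighbour that differed about as much as the region around it, are shown for comparison. They come from RefSeq windows of 250 bases before each start (GRCh38.p14), of which the longest stretch outside annotated exons is printed 5′ to 3′ on the minus strand. All 9 genes matched the RefSeq table, with 13 starts. Capitals mark TGANTCA, the letters of an AP-1 site, where it occurs. The stretches are S100A4 at chr1:153545886-153546056, S100A2 at chr1:153565866-153566094 and S100A16 at chr1:153613146-153613387.
S100A4: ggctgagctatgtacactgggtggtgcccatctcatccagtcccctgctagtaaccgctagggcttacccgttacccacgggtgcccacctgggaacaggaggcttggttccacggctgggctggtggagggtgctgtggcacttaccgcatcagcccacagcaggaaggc
S100A2: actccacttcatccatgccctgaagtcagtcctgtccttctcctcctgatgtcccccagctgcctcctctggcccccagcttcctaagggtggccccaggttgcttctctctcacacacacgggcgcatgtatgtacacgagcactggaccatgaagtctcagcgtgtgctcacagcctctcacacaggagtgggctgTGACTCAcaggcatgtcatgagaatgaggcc
S100A16: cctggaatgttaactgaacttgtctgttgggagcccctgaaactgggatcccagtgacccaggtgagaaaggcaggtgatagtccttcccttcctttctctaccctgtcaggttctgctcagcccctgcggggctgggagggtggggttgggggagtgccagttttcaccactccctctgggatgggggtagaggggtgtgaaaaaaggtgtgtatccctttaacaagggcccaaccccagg

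On both strands of the whole windows 3 motifs were searched, of which no pair can share bases. They were the letters TATAAA of a TATA box, the letters GGGCGG of a GC box, and the AP-1 letters TGANTCA. The window of S100A2 at the start shown held 1 TGANTCA, seen in capitals, with 0 TATAAA and 0 GGGCGG, and 4 CpG pairs. The window of S100A4 held 1 TATAAA, which lies in its exonic part and is not printed, and 7 CpG pairs. The window of S100A16 at the start shown held none of these motifs and 1 CpG pair. S100A16 and S100A2 each have another start that is not printed. That of S100A16, outside annotated exons, held 1 GGGCGG and 6 CpG pairs. That of S100A2, inside annotated exons, held none of the motifs and 3 CpG pairs. The windows of S100A6 and S100A10, which lie in annotated exons and are not printed, held 3 and 1 GGGCGG and 24 CpG pairs each. TGANTCA was not particular to S100A2: the window of S100A3, inside the gene body of S100A4, also held 1, with 1 GGGCGG and 4 CpG pairs. The windows of S100A11, S100A14 and all starts of S100A13 held no TGANTCA. Among 35116 promoter windows of the same length, 6.57% held TGANTCA, 10.7% held TATAAA and 42.6% held GGGCGG, and the median number of CpG pairs was 11. A match describes letters only, and binding was not measured.

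S100A10, known as p11, is the member that has lost calcium binding and pairs with annexin A2 (ANXA2) at the cell membrane, where the complex binds plasminogen. It spans chr1:151982915-151993859. S100A10 had 216, 233 and 250.4 CPM in the MDA231-LN libraries, against 377, 412 and 316 CPM in the parental libraries. The lines did not overlap, though the gap was narrower than for S100A4 or S100A6. Means were 233 ± 17.2 CPM in MDA231-LN and 368 ± 48.3 CPM in parental cells (SD, n = 3 each), a log2 fold change of -0.66 ± 0.07 (SE). Its partner ANXA2, on another chromosome, had 1738, 1785 and 1738 CPM in MDA231-LN and 1674, 1825 and 1623 CPM in parental libraries, and these overlap. Per 100 counts of ANXA2 there were 13.3 ± 1.01 counts of S100A10 in MDA231-LN and 21.5 ± 1.76 in parental cells (SD, n = 3 each).

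S100A11, the partner of annexin A1 (ANXA1), could not be measured. Of its exonic bases (the gene spans chr1:152032506-152047907), 87.4% lie inside a longer antisense gene, and 1 count in MDA231-LN and 5 counts in parental libraries were left.

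S100A16 is a widely expressed member with an atypical EF-hand. It spans chr1:153606886-153613145. S100A16 had 227, 217 and 232 CPM in the MDA231-LN libraries, against 459, 466 and 397 CPM in the parental libraries. Its MDA231-LN values were close to one another and near the midpoint between 0 and the parental values. Means were 225 ± 7.53 CPM in MDA231-LN and 441 ± 38.0 CPM in parental cells (SD, n = 3 each), a log2 fold change of -0.97 ± 0.06 (SE).

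S100A13 takes part in the release of the growth factor FGF1 and the cytokine IL1A, proteins without a classical secretion signal. It spans chr1:153618787-153631360. S100A13 had 20.95, 19.2 and 17.7 CPM in the MDA231-LN libraries, against 28.2, 32.1 and 24.9 CPM in the parental libraries. The lines did not overlap, and the gap between them was the narrowest of the 6 genes in fold. Means were 19.3 ± 1.64 CPM in MDA231-LN and 28.4 ± 3.63 CPM in parental cells (SD, n = 3 each), a log2 fold change of -0.56 ± 0.11 (SE). Since 88.1% of its exonic bases lie inside other genes (S100A1 among them), only 264 of 2216 exonic bases could give counts, and the values describe that remainder and the introns.

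S100A14, an epithelial member, was barely counted although it overlaps no other gene. It spans chr1:153614255-153616986. S100A14 had 1, 7 and 1 counts in the MDA231-LN libraries, against 4, 0 and 2 counts in the parental libraries, and no difference was detectable at this depth. S100A3, a protein of the hair cuticle, spans chr1:153547329-153549258 and lies wholly inside S100A4. It had 0 counts in all 6 libraries and was not measured, since each of its read pairs would touch both genes.

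Levels of different genes were compared per kb of exon. In MDA231-LN the order was S100A6 (372 ± 29.7), S100A10 (151 ± 11.1), S100A16 (133 ± 4.42), S100A4 (85.5 ± 13.3), S100A2 (47.4 ± 5.85) and S100A13 (8.70 ± 0.739), in CPM per exonic kb (SD, n = 3). In parental cells it was S100A6 (916 ± 207), S100A4 (390.1 ± 57.0), S100A16 (259 ± 22.3), S100A10 (239 ± 31.3), S100A2 (17.3 ± 4.74) and S100A13 (12.8 ± 1.64) in the same unit. S100A4 thus stood in the fourth place in MDA231-LN and in the second in parental cells. Neighbours in the order were separate in every library in MDA231-LN. In parental cells S100A16 and S100A10 overlapped, and so did S100A2 and S100A13 (12.9 to 22.3 against 11.2 to 14.5). Per kb of the whole gene body S100A16 came before S100A10 in MDA231-LN and before S100A4 in parental cells. Per kb of exon that lies in no other gene, an alternative chosen after the values were seen, S100A13 came before S100A2, at 73.0 and 47.4 in MDA231-LN and at 108 and 17.3 in parental cells.

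Among 12016 tested protein-coding genes ranked per exonic kb, S100A6 held rank 48 from the top in MDA231-LN and rank 19 in parental cells. S100A4 held rank 377 in MDA231-LN and rank 43 in parental cells, the widest move among the 4 abundant members. S100A10 held rank 164 in MDA231-LN and rank 82 in parental cells, and S100A16 held rank 200 in MDA231-LN and rank 76 in parental cells. S100A2 went the other way, with rank 818 in MDA231-LN and rank 2829 in parental cells. S100A13 held ranks 4716 in MDA231-LN and 3701 in parental cells, reckoned on all its 2216 exonic bases. Only 264 of these could give counts, so its ranks depend on the length used.

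Counts given to the 9 genes made up 0.103 ± 0.00699% of all counts in MDA231-LN and 0.209 ± 0.0321% in parental libraries (SD, n = 3 each). These shares leave out S100A3, nearly all of S100A11 and most exonic bases of S100A13, hidden by overlap with other genes. Summed per exonic kb, the 6 genes that passed the filter reached 798 ± 56.0 CPM per kb in MDA231-LN and 1834 ± 320 CPM per kb in parental cells. S100A6 made up shares of that sum that overlapped between the lines, 46.7 ± 1.45% in MDA231-LN and 49.7 ± 2.56% in parental cells. S100A4 made up 10.7 ± 1.11% in MDA231-LN and 21.3 ± 0.880% in parental cells. S100A2 made up 5.93 ± 0.349% in MDA231-LN and 0.930 ± 0.0936% in parental cells. S100A10 made up 19.0 ± 1.05% in MDA231-LN and 13.1 ± 0.649% in parental cells, a larger share of a smaller sum. The makeup therefore differed in S100A4, S100A2 and S100A10 more than in S100A6 and S100A16 (16.6 ± 0.679% in MDA231-LN and 14.3 ± 1.42% in parental cells).

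**Figure D3:**
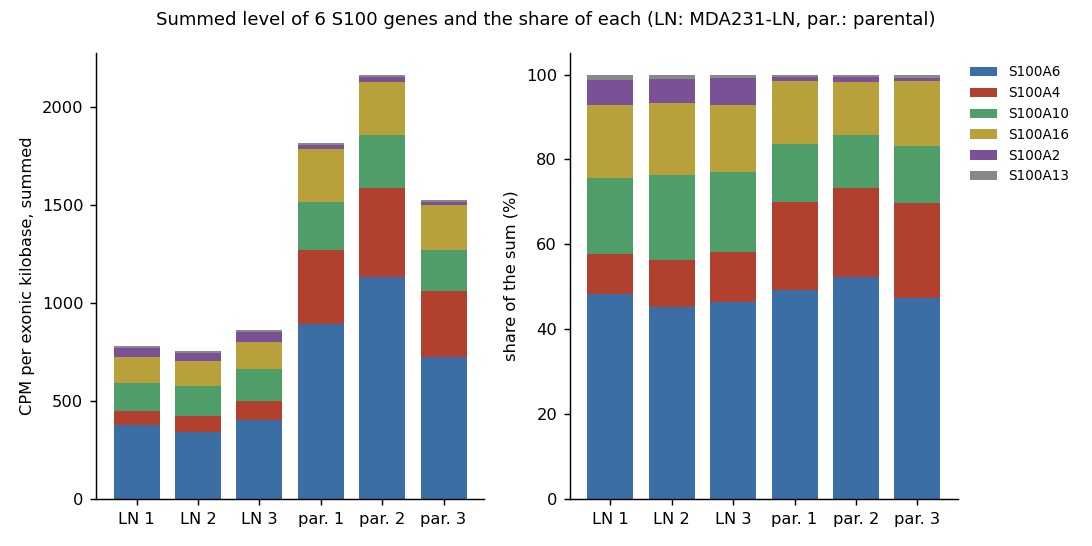
Left, summed level of 6 S100 genes in CPM per exonic kb in each MDA231-LN (LN) and parental (par.) library, and right, the share of each gene in that sum in percent. The sums average 798 in MDA231-LN and 1834 in parental libraries, and the band of S100A4 is narrower and that of S100A2 wider in each MDA231-LN library.

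Most of the tested genes around them were lower in MDA231-LN. Of 513 other genes of chromosome 1 that start between 150 and 160 Mb, 152 were tested, and 126 of these were lower (82.9%) and 10 higher (6.58%) at an adjusted p under 0.05 (edgeR quasi-likelihood test, Benjamini-Hochberg), against 31.2% lower and 31.6% higher among all tested genes. Of the 152, 70 were at least 2-fold lower and 9 at least 2-fold higher at that threshold. Among all 14176 tested genes, 1068 were at least 2-fold lower and 1848 at least 2-fold higher. Their median log2 fold change was -0.97 (quartiles -1.22 and -0.65), or 1.96-fold lower, against 0.02 (quartiles -0.39 and 0.50) over all tested genes. Across the rest of chromosome 1, 301 of 1297 tested genes were lower and 564 higher, with a median of 0.22. The window's 6 bands of 1 Mb with more than 10 tested genes had medians between -1.11 and -0.81, the lowest in the band that holds the second S100 run.

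Set against the window's median, the S100 genes fell into 3 kinds. S100A16 was 0.01 above it on the log2 scale, with 77 of the 152 window genes below S100A16 and 75 above, so its lower level was that of a typical gene of the region. S100A6 was 0.32 below the median, and S100A10 and S100A13 were 0.31 and 0.42 above it, all within a distance that many window genes reached: 27 lay below S100A6, 41 above S100A10 and 30 above S100A13. S100A4 was 1.22 below the median, with 5 window genes lower still. Of these 5, PEAR1 averaged 99.2 CPM in parental cells and each of the others at most 5.81 CPM. S100A2 was 2.44 above the median, which is 5.43-fold, with 8 window genes higher. All 8 were at far lower levels than S100A2, averaging at most 9.47 CPM in MDA231-LN. These places are a description, and no test of the S100 genes against the window was made.

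**Figure D4:**
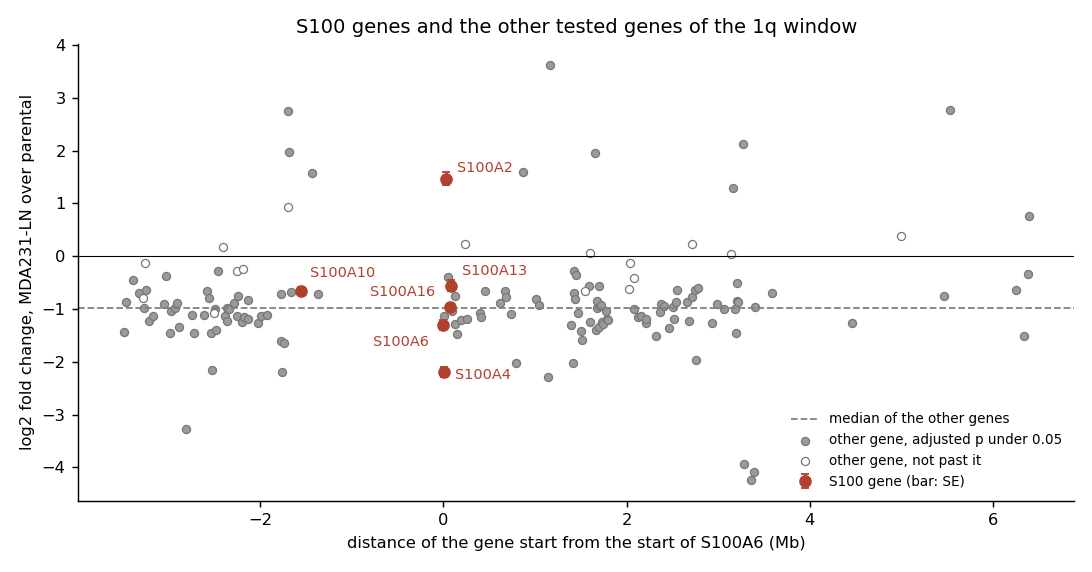
Log2 fold change (MDA231-LN over parental) of 6 S100 genes (red, bars of 1 SE) and of the 152 other tested genes of the window, against the distance of the gene start from that of S100A6 in Mb. Most grey points gather around the dashed median at -0.97, S100A16 lies on it, S100A4 lies below it and S100A2 far above it.

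Counts were also taken relative to CHTOP, the nearest tested gene beyond S100A13, which needs no scaling between libraries. CHTOP, a chromatin and mRNA export factor whose gene starts 2622 bases beyond S100A13, averaged 78.8 ± 2.18 CPM in MDA231-LN and 162 ± 5.46 CPM in parental cells (SD, n = 3 each). It was lower by 1.04 ± 0.06 on the log2 scale in MDA231-LN (adjusted p = 4.15e-14, edgeR quasi-likelihood test). That is close to the window's median of -0.97, so ratios to CHTOP largely restate the places relative to that median. For each 100 counts of CHTOP there were 286 ± 12.6 of S100A16 in MDA231-LN and 273 ± 32.1 in parental cells, and 459 ± 40.1 of S100A6 in MDA231-LN and 553 ± 142 in parental cells, and for both genes the libraries of the lines overlapped. S100A4 gave 112 ± 20.0 per 100 counts of CHTOP in MDA231-LN and 248 ± 43.8 in parental cells. S100A2 gave 94.5 ± 12.6 in MDA231-LN and 16.8 ± 5.12 in parental cells. For S100A4 and S100A2 the libraries of the lines stayed apart on this ratio.

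**Figure D5:**
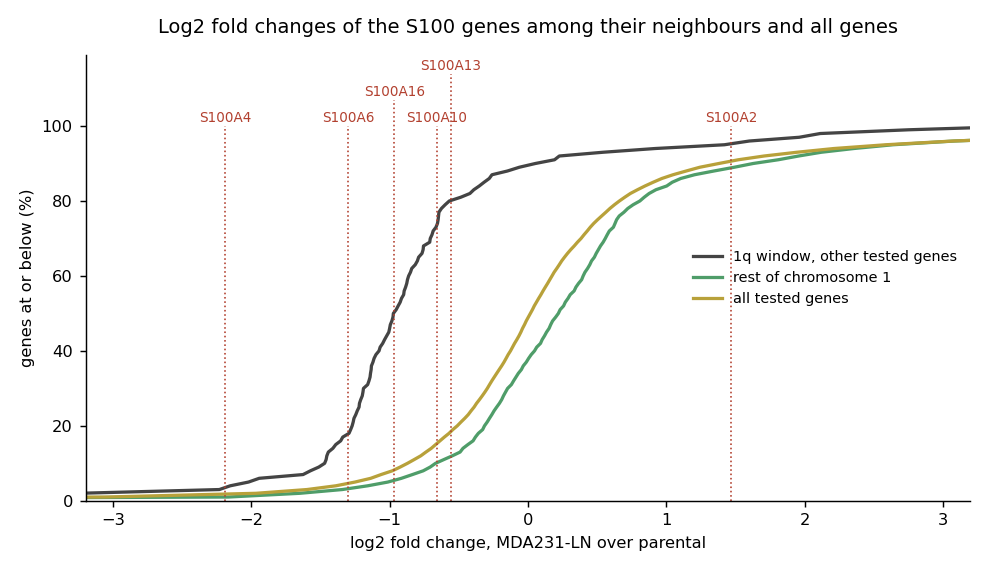
Share of genes at or below each log2 fold change (MDA231-LN over parental), in percent, for the other tested genes of the 1q window, the rest of chromosome 1 and all tested genes, with dotted lines at the values of 6 S100 genes. The window's curve crosses 50% near the line of S100A16, while S100A4 sits at the lower end of that curve and S100A2 at its upper end.

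Other genes next to the runs varied. THEM4, a mitochondrial thioesterase gene 73278 bases before S100A10, averaged 11.9 ± 0.262 CPM in MDA231-LN and 19.2 ± 0.401 CPM in parental cells (SD, n = 3 each), and was lower by 0.68 on the log2 scale (adjusted p = 1.29e-05, edgeR). Its difference was close to that of S100A10, and 56.3% of its exonic bases lie inside other genes. TCHH, an S100-fused gene of the hair follicle that is the nearest tested protein-coding gene between both runs, averaged 2.45 ± 0.897 CPM in MDA231-LN and 0.809 ± 0.374 CPM in parental cells (SD, n = 3 each). It was higher by 1.58 ± 0.42 on the log2 scale (adjusted p = 0.00189, edgeR), at a level far under that of S100A2.

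Among window genes of at least 5 CPM on average, AIM2, a cytosolic DNA sensor, was the single protein-coding gene with a conventional symbol that rose with no overlap of the lines. AIM2 averaged 9.47 ± 0.797 CPM in MDA231-LN and 1.40 ± 0.437 CPM in parental cells (SD, n = 3 each), a log2 fold change of 2.77 ± 0.24 (adjusted p = 1.01e-10, edgeR). PEAR1, a platelet and endothelial receptor, fell furthest among those named, with 5.23 ± 0.445 CPM in MDA231-LN and 99.2 ± 6.005 CPM in parental cells, 18.9-fold lower (adjusted p = 2.44e-22, edgeR). TDRKH (a piRNA pathway protein), PRUNE1 (a phosphatase) and ATP8B2 (a phospholipid flippase) followed at log2 fold changes of -2.18, -2.16 and -2.03, near that of S100A4.

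Window genes were also ranked by how closely their profile over the 6 libraries followed that of S100A4 or S100A2, as the Euclidean distance between log2 CPM profiles each centred on its own mean. Nearest to S100A4 among 152 genes were PBXIP1 (distance 0.288), GLMP (0.361) and TDRKH (0.382), with log2 fold changes of -2.02, -1.96 and -2.18. Nearest to S100A2 were IL6R (0.621), IGSF9 (1.09) and CRABP2 (1.20), at lower levels: IL6R averaged 5.61 ± 0.651 CPM in MDA231-LN and 1.86 ± 0.672 CPM in parental cells (SD, n = 3 each). No window gene followed S100A2 as closely as these 3 followed S100A4. With 2 lines the distance mostly reflects the fold change.

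Of 19 further S100 and S100-fused genes, 2 had enough counts to be tested. S100A5, between S100A6 and S100A4, had 2.51, 2.77 and 2.36 CPM in the MDA231-LN libraries, against 7.13, 5.70 and 4.01 CPM in the parental libraries. It fell, by 1.13 ± 0.25 on the log2 scale (adjusted p = 2.78e-04, edgeR quasi-likelihood test), close to the window's median. TCHH was the other and rose. S100P, on another chromosome, had 8 counts in MDA231-LN and 1 in parental libraries, and S100Z had 20 counts in MDA231-LN and 10 in parental libraries, too few for the test. In all 6 libraries 14 genes had 0 counts. Of these, 7 overlap no other gene, among them S100A8, S100A9, S100A12 and S100B, and the other 7, S100A1 among them, lie over 90% inside other genes and were not measured. A count of 0 over 3 libraries allows up to 0.0526 CPM in MDA231-LN and 0.059 CPM in parental cells.

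Genes of S100 binding partners and receptors, a list of 25 chosen with earlier results of these data known, had shares of calls near those of all genes. Of 19 tested, 7 rose (36.8%) and 6 fell (31.6%) in MDA231-LN (adjusted p under 0.05, edgeR quasi-likelihood test), against 31.6% higher and 31.2% lower among all tested genes. Their median log2 fold change was 0.04, against 0.02 over all tested genes. With upper-quartile scaling, which moved the median of all genes to 0.13, the split was 9 to 4. Of the partners of S100A4, MYH9, the heavy chain of non-muscle myosin IIA, averaged 1965 ± 54.6 CPM in MDA231-LN and 1908 ± 142 CPM in parental cells (SD, n = 3 each, here and for the other partners), a difference within the spread of the libraries (adjusted p = 0.505, edgeR). Of the partners of S100A6, CACYBP averaged 159 ± 6.17 CPM in MDA231-LN and 187 ± 9.74 CPM in parental cells (adjusted p = 0.00101, edgeR), and this call was lost with upper-quartile scaling (adjusted p = 0.0593).

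Annexins, the partners of S100A10, S100A11 and S100A6, differed among themselves. ANXA2 averaged 1754 ± 26.7 CPM in MDA231-LN and 1707 ± 105 CPM in parental cells, with no difference found (adjusted p = 0.519, edgeR), though it passed with upper-quartile scaling (adjusted p = 0.00597). ANXA1 averaged 463 ± 9.85 CPM in MDA231-LN and 415 ± 34.2 CPM in parental cells and was higher by 0.16 ± 0.06 on the log2 scale (adjusted p = 0.0176, edgeR). That call was lost when MDA231-LN replicate 2 or 3 or parental replicate 1 or 3 was left out, with adjusted p up to 0.0997. ANXA6 averaged 295 ± 13.4 CPM in MDA231-LN and 540 ± 35.4 CPM in parental cells and fell by 0.87 on the log2 scale (adjusted p = 5.01e-13, edgeR), the largest difference among the 4 annexins of the list, the fourth being ANXA11 (-0.12 on the log2 scale, adjusted p = 0.0529, edgeR). STIP1, a chaperone adaptor that S100 proteins bind, fell by 0.38 (adjusted p = 4.64e-07, edgeR).

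DLC1, a GTPase-activating protein that S100A10 binds, rose most among the partners named, with 114 ± 1.73 CPM in MDA231-LN and 30.8 ± 2.30 CPM in parental cells (SD, n = 3 each; log2 fold change 1.88, adjusted p = 8.96e-18, edgeR). It thus moved opposite to S100A10. CTSB, a protease bound by the complex of S100A10 and ANXA2, rose by 0.34 on the log2 scale (adjusted p = 2.32e-05, edgeR). Of the receptors for released S100 proteins, BSG, reported to bind S100A9, was higher by 0.34 (adjusted p = 3.07e-05, edgeR). AGER had 5.28, 5.77 and 6.32 CPM in the MDA231-LN libraries, against 3.66, 2.73 and 3.16 CPM in the parental libraries. The lines did not overlap at this low level, and AGER rose by 0.86 ± 0.22 on the log2 scale (adjusted p = 0.00123, edgeR). TLR4 had 0 counts and lies wholly inside another gene, so it was not measured.

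Other EF-hand genes, encoded away from 1q21, were called in each direction. Of 27 listed and 22 tested, 9 rose (40.9%) and 7 fell (31.8%), against 31.6% higher and 31.2% lower among all tested genes. Their median log2 fold change was 0.12, against 0.02 over all tested genes, and with upper-quartile scaling 11 rose and 4 fell. PLS3, an actin-bundling protein with EF-hands, averaged 222 ± 3.54 CPM in MDA231-LN and 521 ± 33.7 CPM in parental cells, a fall of 1.23 on the log2 scale (adjusted p = 2.83e-16, edgeR), much like that of S100A6. ACTN1, an actin crosslinker, rose by 0.76 (adjusted p = 1.97e-13, edgeR), and EFHD2, an actin-binding protein, rose by 0.64 (adjusted p = 1.81e-10, edgeR). RCN2, a calcium-binding protein of the endoplasmic reticulum, fell by 0.67 (adjusted p = 4.91e-10, edgeR).

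The S100 genes varied together among the parental libraries. For all 6 genes that passed the filter parental replicate 2 was highest and parental replicate 3 lowest, S100A2 included. Coefficients of variation in parental cells were 27.5% for S100A2, 22.6% for S100A6, 14.6% for S100A4, 13.1% for S100A10, 12.8% for S100A13 and 8.62% for S100A16, against medians of 6.86% over all genes of at least 5 CPM and 9.14% over those protein-coding ones no longer in exon than S100A13. S100A16 was thus below the median of such short genes and the other 5 were above it. In MDA231-LN they were 12.3% for S100A2, 15.6% for S100A4, 7.98% for S100A6, 7.37% for S100A10, 8.49% for S100A13 and 3.34% for S100A16, against medians of 5.41% over all such genes and 6.53% over the short ones. Short genes shared this order: 1171 protein-coding genes with at most 2216 exonic bases deviated by a median of 0.08 on the log2 scale in parental replicate 2 and by -0.10 in parental replicate 3. Leaving out parental replicate 2 gave log2 fold changes of -1.12 for S100A6, -2.08 for S100A4 and 1.69 for S100A2, and leaving out parental replicate 3 gave -1.45 for S100A6, -2.29 for S100A4 and 1.28 for S100A2. The S100 genes thus kept their directions without either library.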

How the data were processed

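Bulk RNA of 3 MDA231-LN and 3 parental MDA-MB-231 libraries was analysed. Raw counts for each gene were deposited, made by the authors with featureCounts 2.0.1 on Ensembl release 105 (GRCh38), per the file headers. Per the file headers these cover whole genes without strand and leave out read pairs that touch more than 1 gene or map to more than 1 place. Reads were aligned with STAR, per the submitters' processing notes, which also list Subread and DESeq2.

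From these counts edgeR 4.0.16 (R 4.3.3) gave TMM-scaled CPM, and its quasi-likelihood test with filterByExpr compared MDA231-LN with parental cells over 14176 genes, with Benjamini-Hochberg adjustment over all of them and a threshold of 0.05. The test was checked on simulated data with 200 changed genes, for the recovery of set fold changes only. Far more genes were called in these data, so that check does not cover the choice of scaling. Symbols matched 61369 of 61541 genes (99.7%). Exons and biotypes came from GENCODE 29, promoter windows from RefSeq. The members and lists were chosen with earlier results of these data known. Named besides the 9 genes were other S100 genes with at least 3 counts, window genes of at least 5 CPM with the largest changes (up to 4 each way), the nearest tested genes beside each run, and up to 6 partner and 4 EF-hand genes with the smallest adjusted p, plus ANXA1, ANXA2 and AGER (1 gene that this rule names is not reported here); MYH9, CACYBP, ANXA11 and TLR4 were added after their values were seen. Alternatives were other scalings, filters and tests (DESeq2 1.42.0, limma-voom), a replicate block, a threshold of 0.01, leaving out overlapped genes or each library, a narrower window and other gene lengths. Replicates were distinct libraries: within a line their counts differed beyond sampling noise (chi-square over degrees of freedom 3.73 to 8.47). Counting floors cover counting error only.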

Additional observations from a re-analysis of the deposited data

How the results depend on the processing

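Across 83 recomputed log2 fold changes of the 6 S100 genes that passed the filter, 82 moved by less than the spread between replicates. Of the rest, 1 moved by more (S100A16, -0.85 with upper-quartile scaling) and 0 changed sign. Their ranges were 1.28 to 1.69 for S100A2, -2.32 to -2.08 for S100A4, -1.45 to -1.12 for S100A6, -0.77 to -0.55 for S100A10, -0.65 to -0.44 for S100A13 and -1.04 to -0.85 for S100A16. S100A13 had no value once genes overlapped by others over more than 50% of their exons were left out.

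Over all tested genes the median log2 fold change was 0.030 with RLE scaling, 0.13 with upper-quartile scaling, 0.15 with no filter, 0.010 with a filter of 1 CPM in 3 libraries, 0.030 with DESeq2 1.42.0, and 0.016 to 0.027 when 1 library was left out. Upper-quartile scaling called 5415 genes higher and 3603 lower (60.0% higher), against 50.3% higher with TMM. The median of the other 1q window genes was -0.86 with upper-quartile scaling, -0.86 with no filter and -0.97 to -0.94 when 1 library was left out (9 to 12 higher and 121 to 125 lower calls), and the genes of its first 5 Mb held 5 higher and 71 lower calls. The median of the partner genes was 0.15 with upper-quartile scaling and 0.032 to 0.083 when 1 library was left out. The EF-hand genes gave 4 lower calls and a median of 0.23 with upper-quartile scaling, and a median of 0.047 to 0.14 when 1 library was left out. The cause of these moves was not tested. Limma-voom and a threshold of 0.01 moved no count by over 1.5 times.

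Same-numbered libraries did not deviate together (correlations of -0.0039, 0.0024 and -0.0526). This gave no sign of pairing by number, but it cannot exclude that such libraries were handled together. A fit with the replicate number as a block called 4325 genes higher and 4266 lower, with 9 higher and 126 lower in the window.

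The 3 libraries a line limit the precision, and overlap with other genes hides S100A3, S100A11 and most of S100A13 from the counts.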
